A study of Mus musculus with 23 samples.

Results

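The collagens, laminins and fibronectin were followed as a family of 62 genes among the 22350 protein-coding genes that the deposited files count. Members were taken by symbol. They are the 44 collagen chains, the 11 laminin chains and 7 further matrix genes, namely Fn1 (fibronectin), Nid1 and Nid2 (nidogens), Hspg2 (perlecan), Agrn (agrin), Vcan (versican) and Tnc (tenascin C). The study asked what the loss of Rptor, which encodes the mTORC1 scaffold Raptor, does to intestinal stem cells and their translation.

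RNA-seq of organoids, which are cultures of intestinal epithelium grown from crypts, covered WT (VillinCre.ERT2.RPL22.HA, 2 lines), Rptor fl/fl (VillinCre.ERT2.Rptor.fl/fl, 2 lines) and stem cell enriched (SCe) organoids (VillinCre.ERT2.RPL22.HA, 3 libraries). SCe organoids received the GSK3 inhibitor CHIR 99021 at 10 µM and valproic acid at 1.5 mM. Each WT and Rptor fl/fl line was sequenced in 2 technical runs, which were summed. Ribo-seq, which sequences the mRNA fragments protected by ribosomes (footprints), covered 3 SCe libraries of the same genotype and 3 libraries with the label Rptor fl/fl (VillinCre.ERT2.Rptor.fl/fl.RPL22.HA). It also covered the small intestine of 3 WT mice (Lgr5Cre.ERT2.RPL22.HA) and 3 Rptor fl/fl mice (Lgr5Cre.ERT2.Rptor.fl/fl.RPL22.HA), all C57BL/6. The labels call the organoids without CHIR 99021 and the mice untreated, while the study's methods describe tamoxifen induction for every genotype used here, control genotypes included, in the animals or, for a set of Rptor fl/fl organoids, in culture. In Ribo-seq the footprints came from ribosomes pulled down by their HA tag, so a Cre drives both the tag and the deletion, in the whole epithelium with VillinCre and in Lgr5-positive cells and their progeny with Lgr5Cre. The organoid RNA-seq and Ribo-seq therefore come from different Rptor fl/fl lines, without and with the tag. Organoids were grown in basement membrane extract, whose matrix proteins sequencing does not measure.

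Intestinal epithelium rests on a basement membrane, a sheet in which laminin trimers and collagen IV trimers form networks that nidogens, perlecan and agrin connect. Epithelial cells make part of this sheet themselves, with stroma supplying the rest. The fibrillar collagens, collagen VI, versican and tenascin C belong mainly to the connective tissue beneath, and fibronectin is made by stroma and by epithelium in culture or repair. The organoid and the tissue values are kept apart for that reason.

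Collagen chains share a sequence feature that the choice by symbol did not use. Glycine codons recur at a spacing of 3 along their triple helix. They made up a median of 24.2% of the codons of the 44 collagens (range 9.17% to 31.2%), 8.17% of those of the laminins and 6.03% over 21526 genes, and the longest unbroken run of glycine-led codon triplets had a median of 58.5 in collagens against 2 over all genes. Laminins instead held a median of 5.82% cysteine codons, against 2.13% over all genes. The stretches below show this repeat in the 4 basement membrane collagens with higher mRNA in Rptor fl/fl than in WT organoids, with glycine codons in capitals. They are exonic and coding, are given 5′ to 3′ on the gene's strand and were read from the GENCODE vM21 transcripts on GRCm38.p6. Col4a1 lies at chr8:11247066-11247095 on the minus strand in exon 3 (codons 49 to 58). Col4a2 lies at chr8:11429447-11429476 on the plus strand in exon 29 (codons 777 to 786). Col18a1 lies at chr10:77077717-77077746 on the minus strand in exon 12 (codons 953 to 962). Col4a5 lies at chrX:141656825-141656854 on the plus strand in exon 41 (codons 1249 to 1258).
Col4a1: GGAgaaagaGGCttgccaGGGttgcaaGGT
Col4a2: GGGacacgaGGAgatgctGGActtccaGGA
Col18a1: GGAcctgcaGGCcttcctGGTgtacctGGG
Col4a5: GGTcccaaaGGAaaccctGGGcctcaaGGC

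Collagen IV genes are also arranged in pairs that start next to each other and run in opposite directions. Col4a4 and Col4a3 are 71 bases apart on chromosome 1, and Col4a6 and Col4a5 are 1308 bases apart on chromosome X. Col4a1 (minus strand, chr8:11198423-11312826) and Col4a2 (plus strand, chr8:11312805-11449287) overlap by 22 bases of their first exons, shown in capitals on the plus strand at chr8:11312801-11312830.
Col4a1 and Col4a2: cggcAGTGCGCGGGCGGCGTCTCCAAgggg
This overlap is short beside either transcript, so reads of the pair could be told apart by sequence over nearly their whole length.

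Depth set what could be seen. The RNA-seq lines and libraries held 27439459 to 67598878 reads on genes for SCe and 23802944 to 29690442 for each technical run of the other groups, organoid Ribo-seq 1106178 to 8257457 footprints and mouse Ribo-seq 772077 to 8238388. SCe replicate 1 of the RNA-seq stood apart from the other two SCe libraries, with a Spearman correlation of 0.962 and 0.964 to them against 0.997 between them across 12665 genes. The targeted gene Rptor was at 51.5 and 47.9 CPM (counts relative to the library size, which was scaled by TMM) in WT and at 14.8 and 15.5 CPM in Rptor fl/fl organoids (log2 fold change −1.71, adjusted p = 0.00516). In Ribo-seq Rptor stood at 15.2, 41.8 and 21.0 CPM in SCe against 17.2, 18.7 and 15.9 CPM under the Rptor fl/fl label (adjusted p = 0.318), and in mice at 39.5 to 44.5 CPM in WT against 32.5 to 36.7 CPM in Rptor fl/fl (adjusted p = 0.150), so footprints did not check those labels. At least 10 reads in every library were found for 22 of the 62 members in WT, 26 in Rptor fl/fl and 28 in SCe RNA-seq. In Ribo-seq the same held for 12 members in SCe organoids, 9 in those labelled Rptor fl/fl, 32 in WT mice and 40 in Rptor fl/fl mice.

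The matrix mRNA of organoids came mainly from basement membrane genes. Per kilobase of transcript (CPM divided by the effective length in kilobases, n = 2 lines), high levels in WT organoids belonged to Agrn at 26.5 ± 2.17 (SD), Lamb3 at 25.2 ± 1.49, Lamc1 at 11.9 ± 2.85 and Lama5 at 6.73 ± 2.32. Agrn and Lamb3 did not differ beyond their spread. The 17 fibrillar and collagen VI chains together reached only 2.73 and 3.05 CPM in WT, 3.43 and 4.90 CPM in Rptor fl/fl and 11.2 to 12.8 CPM in SCe organoids. Col3a1 had 0 reads in every RNA-seq library, Col6a1 and Col6a3 had at most 2 and Col1a2 and Col6a2 at most 6. Col17a1, a transmembrane collagen of skin hemidesmosomes, had at most 12 reads. Markers of stroma were as scarce. The 8 fibroblast markers summed to 0.716 to 1.30 CPM in WT and Rptor fl/fl organoids and to 4.68 to 4.86 CPM in SCe, with Lum at 0 reads in all RNA-seq groups, and the 8 endothelial markers summed to 1.51 to 3.61 CPM, with Cdh5 and Cldn5 at 0.

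**Figure D1:**
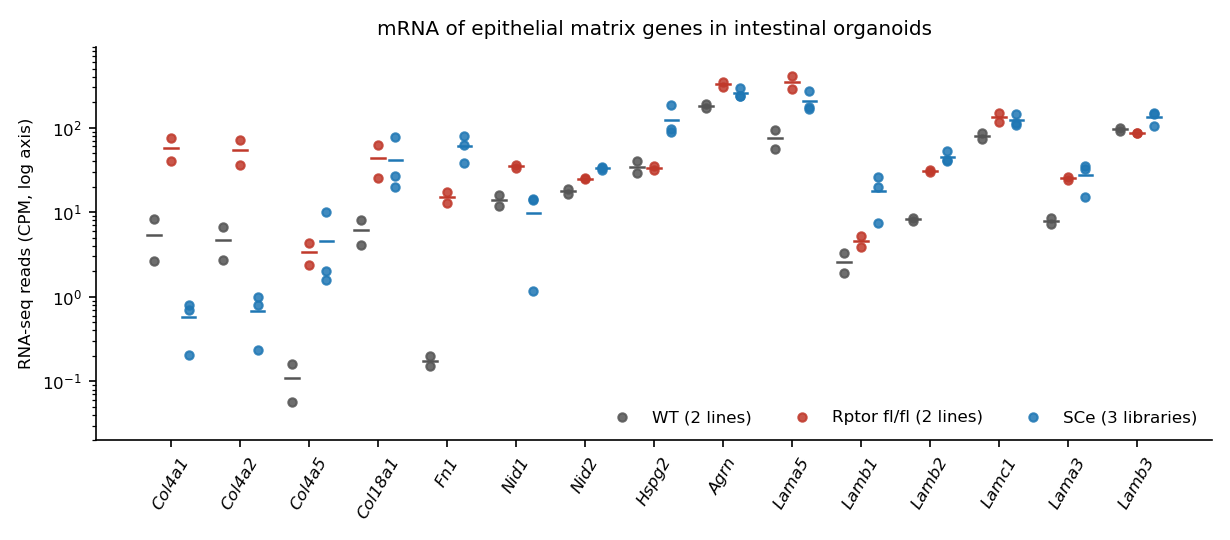
RNA-seq reads in CPM, on a log axis, of 15 basement membrane and related genes in WT (2 lines), Rptor fl/fl (2 lines) and SCe organoids (3 libraries). Points are lines or libraries and bars are means. Col4a1 and Col4a2 are highest in Rptor fl/fl and lowest in SCe, while Fn1 is near 0.2 CPM in WT and above 12 CPM in every other library.

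Rptor fl/fl organoids held more matrix mRNA than WT organoids. By their genotypes the WT lines carry the RPL22.HA allele and the Rptor fl/fl RNA-seq lines do not. The deletion and the tag allele therefore cannot be told apart in this comparison. Of 28 members with enough reads to test, 16 were higher, where 11.6% of the 14131 genes tested were. The count filter can pass a gene on the reads of 1 group alone. Such a gene can only be called higher in that group. In 3 of the 28 members, among them Col14a1 and Lama1, a group had 3 or fewer reads in every library. With edgeR 0 members were lower, where 11.0% of genes were, while 1 had an unadjusted p under 0.05 and DESeq2 called 1. The former was Col26a1, with 52 and 12 reads in WT and 0 in Rptor fl/fl (adjusted p = 0.0519). The median log2 fold change over the 28 members was 0.98, against −0.0049 over all genes. Their summed level over all 62 members was 651 and 566 CPM in WT and 1566 and 1201 CPM in Rptor fl/fl.

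Collagens of basement membranes were among the members with the largest changes. Col4a1, which with Col4a2 builds the collagen IV of most basement membranes, was at 8.25 and 2.64 CPM in WT and at 75.1 and 40.1 CPM in Rptor fl/fl (log2 fold change 3.40 ± 0.62 SE, adjusted p = 0.0263). Col4a2 was at 6.78 and 2.70 CPM against 71.2 and 36.7 CPM (3.503 ± 0.56, adjusted p = 0.0205). Both chains sat higher in every Rptor fl/fl line than in either WT line, by about the same factor (10.5 and 11.3 times). Col4a5, a chain of a more restricted collagen IV, rose from 0.0567 and 0.161 CPM to 4.32 and 2.38 CPM (4.93 ± 0.57, adjusted p = 0.0134). Col18a1, a proteoglycan collagen of basement membranes and the source of endostatin, was at 8.15 and 4.05 CPM in WT and at 62.3 and 25.7 CPM in Rptor fl/fl (2.85 ± 0.56, adjusted p = 0.0300). Each of these genes differed about 2 times or more between the WT lines or between the Rptor fl/fl lines, and the groups still did not overlap. Without Rptor fl/fl line 1, which was the higher for all of them, 10 members were called, Col4a1 had an adjusted p of 0.0689, Col4a2 of 0.0515 and Col18a1 of 0.0602. Col18a1 also missed the threshold without WT line 2 (0.0679).

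Fibronectin, which binds integrins and links cells to other matrix proteins, had 8 and 10 reads in WT and 908 and 737 in Rptor fl/fl organoids. That is 0.151 and 0.202 CPM against 17.6 and 12.9 CPM (log2 fold change 6.42 ± 0.28, adjusted p = 0.00516), an 85.5-fold difference. Col14a1, a collagen found along fibril surfaces, had 1 read in each WT line and 1188 and 400 in Rptor fl/fl, a ratio of 748 with a 95% counting interval of 207 to 6182. Lama1 went from 1 and 2 reads to 16 and 30 (ratio 14.4, interval 4.64 to 72.6), and lost its call whenever any line was left out (adjusted p 0.0506 to 0.0995). These low counts give the direction and a wide range for the size.

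Laminin chains rose by different amounts. A laminin is a trimer of an alpha, a beta and a gamma chain. Of the alpha chains, Lama5 was at 93.2 and 56.6 CPM in WT and at 407 and 283 CPM in Rptor fl/fl (log2 fold change 2.20 ± 0.30, adjusted p = 0.0171), and Lama3 at 7.29 and 8.49 against 26.2 and 24.0 CPM (1.67 ± 0.12, adjusted p = 0.00871). Both alpha chains were thus more than 3 times as high. Among the beta chains, Lamb2 rose from 8.65 and 7.89 to 31.5 and 29.9 CPM (1.89 ± 0.09, adjusted p = 0.00516). Lamb3 stayed at 91.8 and 100 CPM in WT against 87.7 and 87.7 CPM (−0.13 ± 0.06, adjusted p = 0.202), and Lamb1 was at 1.91 and 3.29 against 5.30 and 3.90 CPM (0.82 ± 0.33, adjusted p = 0.133). The gamma chain Lamc1 rose from 86.3 and 73.1 to 150 and 116 CPM (0.74 ± 0.15, adjusted p = 0.0332). Lamb3, which joins Lama3 in a laminin of epithelial basement membranes, thus had no call where Lama3 did, and the difference between the chains was not tested. Lamc1 lost its call without WT line 1 (adjusted p = 0.0539), WT line 2 (0.101) or Rptor fl/fl line 1 (0.0672).

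Of the linkers, Nid1 was at 15.96 and 11.999 CPM in WT and at 36.6 and 33.6 CPM in Rptor fl/fl (log2 fold change 1.33 ± 0.16, adjusted p = 0.0140) and Agrn at 192 and 171 against 351 and 303 CPM (0.85 ± 0.10, adjusted p = 0.0149). Nid2 rose less (0.49 ± 0.10, adjusted p = 0.0336), and its call was lost when any line was left out (adjusted p 0.0743 to 0.127). Hspg2 was at 40.4 and 28.9 CPM against 31.5 and 35.2 CPM and overlapped between the groups (−0.05 ± 0.18, adjusted p = 0.846). Vcan, a large proteoglycan, had 19 and 21 reads in WT and 76 and 107 in Rptor fl/fl (2.09 ± 0.28, adjusted p = 0.0169), with an adjusted p of 0.0659 without WT line 1. With all 3 RNA-seq groups in 1 fit 11 members were higher, and the calls of Nid1 (adjusted p = 0.402), Col18a1 (0.0797), Lamc1 (0.0594), Vcan (0.0590) and Col4a5 (0.0552) were lost with their fold changes hardly moved. Tnc had 0 reads in WT and at most 4 in Rptor fl/fl. Beside these changes, 5 of 6 intestinal stem cell markers were lower in Rptor fl/fl, where 11.0% of genes were. Their sum was 3580 and 5146 CPM in WT and 817 and 2055 CPM in Rptor fl/fl. No stromal marker was called by edgeR. The part of a change in cell makeup was not tested, and in such bulk samples more cells of a type and more RNA per cell cannot be told apart.

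Genes that process, bind or cut the matrix moved in both directions. Beside the 11.6% of all genes that were higher and the 11.0% that were lower, 11 of 24 tested matrix receptors were higher and 4 lower, including the hemidesmosome integrin Itgb4 (log2 fold change 1.22 ± 0.11, adjusted p = 0.0107), the epithelial integrin Itgb6 (0.85 ± 0.11, adjusted p = 0.0165), the syndecan Sdc1 (0.61 ± 0.08, adjusted p = 0.0165) and the collagen receptor Ddr1 (0.37 ± 0.05, adjusted p = 0.0173). Among 22 collagen processing genes 4 were higher and 3 lower, near the shares over all genes. The collagen glycosyltransferase Colgalt1 (0.63 ± 0.06, adjusted p = 0.0111), the lysyl oxidase family member Loxl4 (2.75 ± 0.47, adjusted p = 0.0236) and the procollagen peptidase enhancer Pcolce (1.42 ± 0.25, adjusted p = 0.0251) rose, and the lysyl hydroxylase Plod1 fell (−1.72 ± 0.28, adjusted p = 0.0219). Among 15 matrix proteases and inhibitors 5 were higher and 1 lower. The plasminogen activators Plat (2.15 ± 0.16, adjusted p = 0.00891) and Plau (2.09 ± 0.39, adjusted p = 0.0280) and the membrane protease Mmp15 (0.74 ± 0.13, adjusted p = 0.0239) rose, and Mmp7, the matrilysin of Paneth cells, fell (−1.70 ± 0.14, adjusted p = 0.00953).

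Most of the tested members were higher in SCe than in WT organoids, while both main collagen IV chains were lower. Of 36 members tested 27 were higher, where 22.4% of 14925 genes were, and 2 were lower, where 19.9% were. In 4 of the 36, among them Col8a2, Col4a3 and Col12a1, a group had 3 or fewer reads in every library. Members that passed the count filter through SCe alone could only come out higher, so the filter set part of this count and of the median. The median log2 fold change was 2.29 against 0.023 over all genes. The lower ones were Col4a1, at 0.803, 0.204 and 0.705 CPM in SCe against 8.25 and 2.64 CPM in WT (−3.26 ± 0.75, adjusted p = 0.0230), and Col4a2, at 1.00, 0.236 and 0.808 CPM against 6.78 and 2.70 CPM (−2.80 ± 0.71, adjusted p = 0.0299). Every SCe library was below both WT lines for these chains. The Col4a1 call was lost without WT line 1 (adjusted p = 0.135) or SCe replicate 3 (0.0681), and that of Col4a2 without WT line 1 (0.172), WT line 2 (0.0664) or SCe replicate 3 (0.0838).

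The members higher in SCe reached from fibronectin to cartilage-type collagens. Fn1 was at 37.8, 62.1 and 80.7 CPM in SCe (log2 fold change against WT 8.42 ± 0.54, adjusted p = 0.00127). Hspg2 was at 187, 89.3 and 96.0 CPM (1.86 ± 0.40, adjusted p = 0.0194), Lama5 at 271, 165 and 177 CPM (1.47 ± 0.32, adjusted p = 0.0206), Lamb2 at 53.2, 40.6 and 41.4 CPM (2.47 ± 0.16, adjusted p = 0.00128) and Lamb1 at 7.46, 25.8 and 19.8 CPM (2.79 ± 0.63, adjusted p = 0.0221). All of these lay above both WT lines. Vcan (3.18 ± 0.57, adjusted p = 0.0110), Nid2 (0.92 ± 0.10, adjusted p = 0.00304), Lamc1 (0.64 ± 0.16, adjusted p = 0.0279) and Agrn (0.53 ± 0.13, adjusted p = 0.0260) were higher by less or from lower levels. Nid1 was at 1.17, 14.0 and 14.3 CPM, overlapped with WT and was not called (adjusted p = 0.708), with the lowest value in SCe replicate 1.

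Collagens that WT organoids hardly express made up most of the rest. Col20a1, a fibril-associated collagen, had 47 and 32 reads in WT and 254, 803 and 603 in SCe (log2 fold change 3.79 ± 0.29, adjusted p = 0.00171). Col1a1, the main chain of collagen I, had 6 and 4 reads against 57, 57 and 66 (3.73 ± 0.53, adjusted p = 0.00614), without its partner Col1a2, which had at most 6. The collagen VIII chain Col8a1 (3.54 ± 0.62), the collagen IX chains Col9a1 (2.79 ± 0.41), Col9a2 (3.41 ± 0.74) and Col9a3 (1.89 ± 0.28), Col4a5 (5.38 ± 1.28), Col25a1 (3.14 ± 0.91), Col28a1 (2.89 ± 0.50), Col18a1 (2.79 ± 0.76), Col27a1 (2.43 ± 0.29), Col11a2 (1.72 ± 0.24) and the anchoring fibril collagen Col7a1 (1.34 ± 0.22) were also called, as was Lama3 (1.82 ± 0.41). Col8a2 and Col4a3 had 0 reads in WT and were at least 6.98-fold and 8.56-fold higher against a floor of 3 reads over the group, and Col12a1 went from 2 and 1 reads to 3, 15 and 21 (ratio 8.79, counting interval 2.79 to 44.4). The count of 27 rested on both WT lines. It was 5 without WT line 1, 8 without WT line 2 and 17 without SCe replicate 2, and 28 without SCe replicate 1, the library that stood apart, while Fn1, Lamb2, Nid2, Col20a1 and Col27a1 were called whichever library was left out. Beside these values, the fibroblast markers summed to 4.68 to 4.86 CPM in SCe against 0.961 to 1.30 CPM in WT (1 of 3 tested higher, Pdgfra) and the smooth muscle markers to 1.70 to 2.48 against 0.360 to 0.457 CPM (2 of 3 higher, Des and Cnn1). The 8 epithelial markers summed to 4710 to 5110 against 8478 to 8837 CPM, with 5 lower. Over all genes 22.4% were higher and 19.9% lower. The 6 stem cell markers summed to 840 to 1638 CPM in SCe against 3580 to 5146 CPM in WT. Such a sum is weighted towards abundant markers and does not give the direction of each one. The study measured Lgr5, Mex3a and Axin2 in SCe relative to WT organoids by RT-qPCR. What part these cell types had in the matrix values was not tested.

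**Figure D2:**
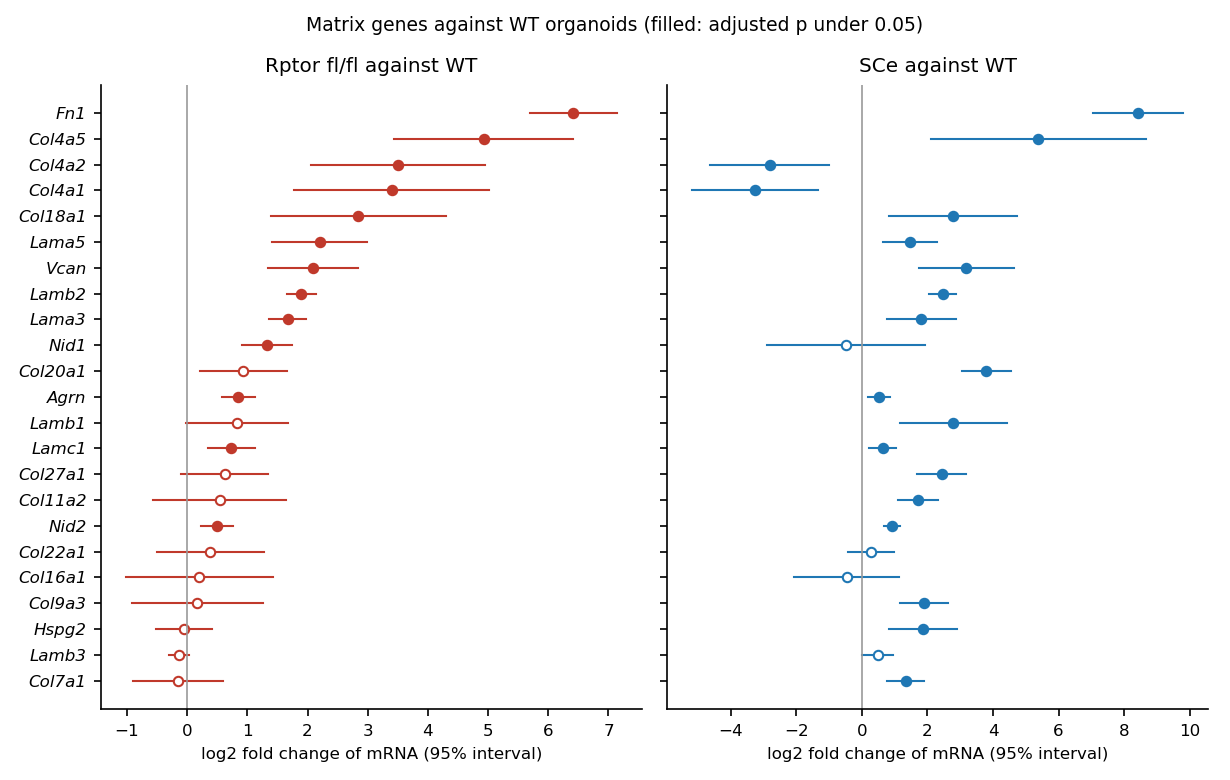
Log2 fold changes of mRNA against WT organoids with 95% intervals, for Rptor fl/fl (left) and SCe organoids (right), in members reported here that were tested in both and had more than 3 reads in every group. Filled points have an adjusted p under 0.05. Fn1 is highest in both panels, and Col4a1 and Col4a2 lie on opposite sides of 0 in them. Both panels use the same 2 WT lines.

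Set directly against SCe, Rptor fl/fl organoids held more collagen IV and less of most other called members. These 3 comparisons share their libraries and are not independent. SCe organoids received CHIR and valproic acid and carry the tag allele, while the Rptor fl/fl RNA-seq lines had neither the treatment nor the tag. Deletion, treatment and tag allele therefore cannot be told apart in the RNA-seq comparison with SCe. Of 39 members tested 6 were higher, where 21.0% of 15103 genes were, and 17 were lower, where 21.8% were, with a median log2 fold change of −1.07 against −0.014 over all genes. In 5 of the 39 a group had 3 or fewer reads in every library, so the count filter set part of these counts too. Among the higher were Col4a1 (6.73 ± 0.59, adjusted p = 0.00188), Col4a2 (6.38 ± 0.62, adjusted p = 0.00226), Col14a1 (6.38 ± 0.68, adjusted p = 0.00269), Lama1 (3.63 ± 0.79, adjusted p = 0.0183) and Lama4 (ratio 10.6, counting interval 4.16 to 34.5). The first 3 of these were called whichever library was left out. Fn1, at 17.6 and 12.9 CPM in Rptor fl/fl, was lower than in SCe (−1.98 ± 0.36, adjusted p = 0.0115), as were Lamb1 (−1.94 ± 0.56, adjusted p = 0.0420), Hspg2 (−1.89 ± 0.38, adjusted p = 0.0143), Lamb3 (−0.59 ± 0.18, adjusted p = 0.0454), Lamb2 (−0.55 ± 0.15, adjusted p = 0.0328) and Nid2 (−0.40 ± 0.08, adjusted p = 0.0133). The other lower ones were collagens, with Col8a1 (−5.21 ± 0.83), Col1a1 (−5.03 ± 1.01), Col9a1 (−4.80 ± 0.91), Col28a1 (−2.94 ± 0.49), Col20a1 (−2.84 ± 0.25), Col27a1 (−1.79 ± 0.27), Col9a3 (−1.70 ± 0.37) and Col7a1 (−1.48 ± 0.29) and, at low counts, Col9a2, Col8a2 and Col12a1. Leaving out either Rptor fl/fl line left 6 lower members, with Fn1 at an adjusted p of 0.0633 without line 1 and 0.0922 without line 2.

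Of 26 collagen processing genes tested against SCe 11 were lower and 3 higher in Rptor fl/fl, where 21.8% and 21.0% of all genes were, with the lysyl hydroxylases Plod1 (log2 fold change −4.90 ± 0.42, adjusted p = 0.00179) and Plod2 (−3.93 ± 0.23, adjusted p = 0.00107) and the prolyl hydroxylase P3h1 (−3.38 ± 0.21, adjusted p = 0.00107) lower, and Creb3l1, a transcription factor of the secretory pathway, higher (1.91 ± 0.13, adjusted p = 0.00122). Among 25 receptors 6 were higher and 5 lower, near the shares over all genes, with the integrins Itgb4 (1.70 ± 0.15, adjusted p = 0.00200) and Itga3 (1.01 ± 0.10, adjusted p = 0.00250) and the syndecan Sdc4 (0.93 ± 0.09, adjusted p = 0.00247) higher and Itgb8 (−5.99 ± 0.43, adjusted p = 0.00125) lower. Of 19 proteases and inhibitors 1 was higher, Mmp14 (0.92 ± 0.11, adjusted p = 0.00340), and 6 were lower, including the membrane inhibitor Reck (−3.45 ± 0.32, adjusted p = 0.00209), Adamts1 (−2.45 ± 0.35, adjusted p = 0.00571) and Adamts4 (−3.73 ± 0.73, adjusted p = 0.0135). In SCe against WT the same lists gave 9 higher and 3 lower of 26 processing genes, 9 and 4 of 25 receptors and 8 and 1 of 19 proteases and inhibitors, beside 22.4% higher and 19.9% lower over all genes. There P3h1 (3.49 ± 0.22, adjusted p = 0.00127), Plod3 (0.83 ± 0.08, adjusted p = 0.00235), Colgalt1 (0.66 ± 0.06, adjusted p = 0.00218), the hyaluronan receptor Cd44 (1.183 ± 0.11, adjusted p = 0.00250), Itga7 (1.65 ± 0.21, adjusted p = 0.00468), Itgb8 (3.52 ± 0.50, adjusted p = 0.00598), Reck (5.78 ± 0.50, adjusted p = 0.00202), Adamts1 (3.32 ± 0.36, adjusted p = 0.00324) and Plat (2.84 ± 0.32, adjusted p = 0.00363) were higher, and Creb3l1 (−1.38 ± 0.13, adjusted p = 0.00263), Itga3 (−0.58 ± 0.10, adjusted p = 0.00949) and Mmp14 (−1.03 ± 0.10, adjusted p = 0.00277) lower.

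Lama3 rose against WT in both kinds of organoid, but on different transcripts. Its long form, which starts far upstream, and its short form, which starts at an internal promoter, are both annotated, and the long form adds an arm to the alpha chain. This split was noticed after the values had been seen, in a scan for transcripts whose share of their gene moved by at least 25 percentage points. Of 17 members compared between SCe and WT 2 had such a transcript, and 1 without overlap. Between Rptor fl/fl and WT RNA-seq it was 1 of 19, also without overlap, and between Rptor fl/fl and SCe 5 of 20, with 3 without overlap. Organoid Ribo-seq gave 1 of 8, without overlap, and mice 6 of 27, with 3 without overlap. Genes outside the family were not scanned, so no share over all genes stands beside these counts. The long form held 11.7% and 3.62% of Lama3 reads in WT, 4.86% and 2.60% in Rptor fl/fl and 37.7%, 74.0% and 79.6% in SCe. The short form, in CPM, was at 6.44 and 8.18 in WT, 24.97 and 23.4 in Rptor fl/fl and 9.36, 8.38 and 7.10 in SCe, so it was high only in the Rptor fl/fl lines. An exact two-sided permutation test of the long share in SCe against WT gave p = 0.2, which is the smallest p that 3 against 2 samples allow. Lama3 was picked from the scan of these same shares, so this p was set by that choice and adds no evidence. In organoid Ribo-seq the long form took 15.1%, 100% and 100% of 22, 14 and 111 footprints in SCe and 0%, 39.7% and 24.2% of 25, 10 and 27 in the Rptor fl/fl-labelled libraries (exact permutation p = 0.3, at counts too low to separate the forms well). In mice it took 27.2%, 19.8% and 15.6% in WT and 12.5%, 13.5% and 11.97% in Rptor fl/fl (exact permutation p = 0.1, the smallest that 3 against 3 samples allow). The long form has 10548 bases in RNA-seq and the short form 5575, and both are annotated to the same end. Reads from the part they share are divided by Salmon, so these shares rest partly on that division.

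**Figure D3:**
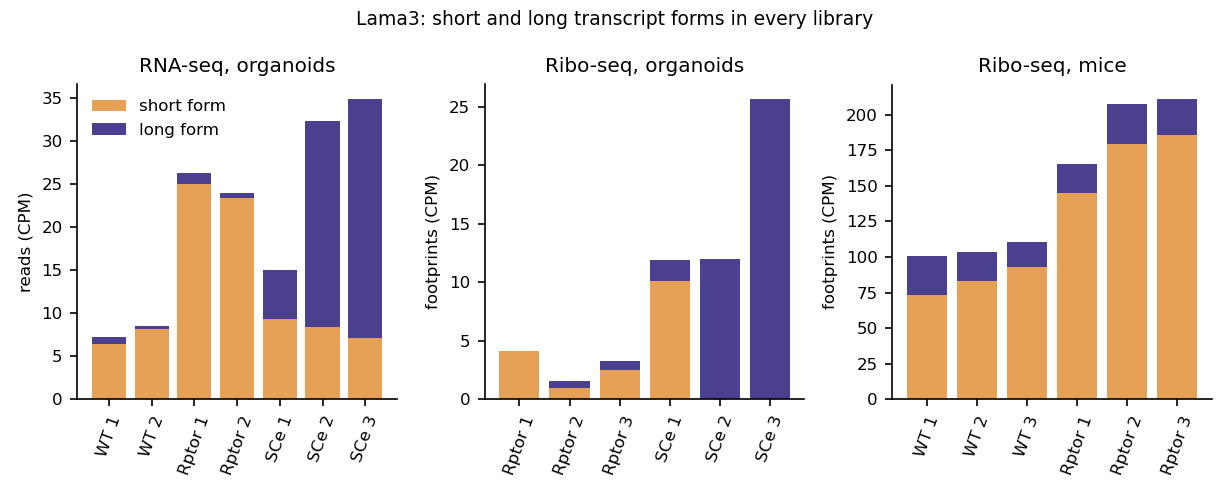
Long and short form of Lama3 in CPM in organoid RNA-seq, organoid Ribo-seq and mouse Ribo-seq. Each bar is 1 line, library or mouse, with the long form stacked on the short form. In RNA-seq the short form is highest in Rptor fl/fl (24.97 and 23.4 CPM) and the long form in SCe (5.65, 23.9 and 27.7 CPM).

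Footprints in organoids showed a smaller set of members. Both groups carry the tag by their genotypes, but only SCe organoids received CHIR and valproic acid. Deletion and treatment therefore cannot be told apart in the Ribo-seq comparison. Between the Rptor fl/fl-labelled libraries and SCe, 12 members had enough footprints to test. In the Rptor fl/fl-labelled libraries 10 were lower, where 9.84% of 10817 genes were. With edgeR and with DESeq2 0 were higher, where 6.63% of genes were, and none had an unadjusted p under 0.05 in that direction. The median log2 fold change was −2.01 against −0.023 over all genes. Fn1 had 96, 118 and 936 footprints in SCe and 1, 4 and 0 in the Rptor fl/fl-labelled libraries, that is 52.0, 101 and 216 CPM against 0.166, 0.634 and 0 CPM (−8.84 ± 0.81, adjusted p = 0.000677). No library labelled Rptor fl/fl held more than 4 footprints of fibronectin.

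Laminins followed with smaller differences, those of Lamb1 and Lama3 at low counts. Lama5 was at 105, 142 and 169 CPM in SCe against 26.4, 29.3 and 24.9 CPM under the Rptor fl/fl label (log2 fold change −2.37 ± 0.21, adjusted p = 0.000594), and Lamb2 at 68.2, 84.5 and 126 against 19.9, 12.7 and 14.0 CPM (−2.60 ± 0.28, adjusted p = 0.00130). Lamb1 (−3.85 ± 0.39, adjusted p = 0.000989), Lama3 (−2.51 ± 0.46, adjusted p = 0.00810) and Lamc1 (−1.15 ± 0.24, adjusted p = 0.0144) were lower too, and Lamb3 (−0.72 ± 0.32, adjusted p = 0.164) was not called. Lamb3 overlapped, at 112, 204 and 308 CPM against 146, 115 and 121 CPM. Col18a1 was at 43.3, 10.2 and 14.5 CPM in SCe against 2.16, 2.85 and 0.972 CPM (−3.53 ± 0.61, adjusted p = 0.00652). Of the linkers, Nid2 (−1.66 ± 0.31, adjusted p = 0.00840), Hspg2 (−1.06 ± 0.22, adjusted p = 0.0125) and Agrn (−0.90 ± 0.19, adjusted p = 0.0152) were lower. With effective length as an offset 4 members were lower. Leaving out libraries gave 6 to 12 lower members. The fewest were left without replicate 3 labelled Rptor fl/fl, where Agrn (adjusted p = 0.0921), Hspg2 (0.0749), Lamc1 (0.0660) and Nid2 (0.0516) lost their calls.

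In the pathway lists 8 of 15 processing genes, 6 of 18 receptors and 1 of 8 proteases and inhibitors had fewer footprints in the Rptor fl/fl-labelled libraries, beside 9.84% of all genes, and the others were not called. The share of the proteases and inhibitors was thus near that of all genes. Plod2 (log2 fold change −3.92 ± 0.33, adjusted p = 0.000498), P3h1 (−4.92 ± 0.87, adjusted p = 0.00687), Plod1 (−2.45 ± 0.29, adjusted p = 0.00149) and Colgalt1 (−1.09 ± 0.18, adjusted p = 0.00508) modify collagen. Itgb8 (−5.86 ± 0.91, adjusted p = 0.00442), Itga5 (−1.90 ± 0.46, adjusted p = 0.0238), Itgav (−1.21 ± 0.19, adjusted p = 0.00428) and Itgb6 (−1.03 ± 0.26, adjusted p = 0.0282) are integrin chains, among them the alpha chains of fibronectin receptors. The protease was Plat (−2.55 ± 0.38, adjusted p = 0.00362).

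The mRNA that was high in Rptor fl/fl organoids had few footprints in the libraries labelled so. Col4a1, at 57.6 CPM on average in RNA-seq, had 4 footprints in the 3 libraries together, where equal CPM would give 1184. Col4a2 had 3 against 1109, Nid1 3 against 722, Col14a1 5 against 308 and Fn1 5 against 313. These 5 genes all had 5 footprints or fewer. Ranked from low to high by footprints per mRNA among 13683 genes, they stood at percentiles 8.69 to 9.50. Genes with 0 footprints shared percentile 4.33. Col18a1 had 39 against 906 (percentile 11.0) and Lama5 549 against 7098 (12.9). Hspg2 had 1865 against 687 (95.8) and Lamb3 2600 against 1803 (81.9). In SCe organoids Fn1 had 1150 footprints where equal CPM would give 442, Lamb2 770 against 331 and Hspg2 1417 against 913. Other members fell short of equal CPM there too, with Agrn at 750 against 1897, Col18a1 at 155 against 308 and Nid1 at 13 against 72.1. Col20a1 was at 3 against 77.1, Col11a2 at 0 against 42.8 and Col27a1 at 0 against 31.7. Among 13453 genes ranked in SCe, Agrn stood at percentile 29.4, Col18a1 at 38.7, Nid1 at 20.3 and Col20a1 at 8.86. Genes with 0 footprints shared percentile 4.24 there.

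These counts stand beside other differences between the RNA-seq and Ribo-seq libraries. The stem cell markers summed to 817 and 2055 CPM in Rptor fl/fl RNA-seq and to 4992 to 5322 CPM in the footprints labelled Rptor fl/fl. In SCe they summed to 840 to 1638 CPM in RNA-seq and to 1554 to 3057 CPM in footprints. The epithelial markers summed to 16307 to 16460 CPM in the footprints labelled Rptor fl/fl and to 7958 to 11348 CPM in those of SCe. Of these 8 markers 3 were higher under the Rptor fl/fl label, where 6.63% of genes were. The lines differ in the RPL22.HA allele, and Rptor footprints did not check the label, so line and assay cannot be told apart for Rptor fl/fl. In the mRNA of WT organoids, which have no Ribo-seq here, Fn1 stood at 0.151 and 0.202 CPM and Col4a1 at 8.25 and 2.64 CPM.

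**Figure D4:**
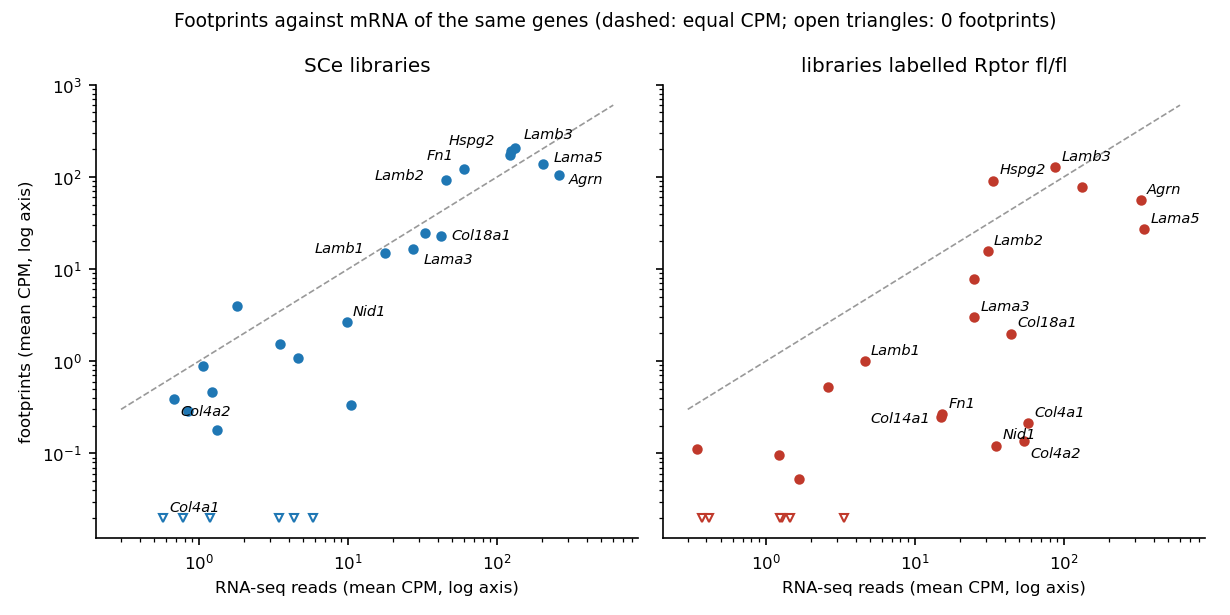
Mean footprints against mean RNA-seq reads, both in CPM on log axes, for members reported here with at least 10 reads in every RNA-seq library of the group shown, in SCe (left) and in the Rptor fl/fl-labelled libraries (right). The dashed line marks equal CPM and open triangles mark 0 footprints. At right Col4a1, Col4a2, Nid1, Fn1 and Col14a1 lie far below the line, while Hspg2 and Lamb3 lie above it.

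Translation efficiency, the change in footprints beyond the change in mRNA, was lower for 5 of 12 members, where 1.81% of 10747 genes were. For Rptor fl/fl the footprints and the mRNA came from different lines, with and without the tag. Line and assay therefore cannot be told apart in these values. The same holds for deletion and treatment, since only SCe organoids received CHIR and valproic acid. By edgeR 0 were higher, where 1.12% of genes were, with 0 also by DESeq2 and at an unadjusted p under 0.05. The median log2 difference was −1.66 against −0.031 over all genes. Among the called ones were Fn1 (−6.93 ± 1.03, adjusted p = 0.00864), Lama5 (−3.08 ± 0.34, adjusted p = 0.00341), Lamb2 (−1.998 ± 0.34, adjusted p = 0.0168) and Agrn (−1.19 ± 0.24, adjusted p = 0.0316). Lamb3 (−0.06 ± 0.44, adjusted p = 0.963) and Hspg2 (0.88 ± 0.41, adjusted p = 0.258) were not called. DESeq2 called 9 lower, the fit with effective length as an offset 1, and leaving out single libraries gave between 1 and 8, with Lama5 called each time. The count was 1 without Rptor fl/fl RNA-seq line 1, 2 without line 2, 2 without SCe RNA-seq replicate 2 or 3, 3 and 2 without replicates 2 and 3 labelled Rptor fl/fl, and 8 without replicate 1 of SCe in either assay. Of the pathway lists, Colgalt1 (−1.03 ± 0.20, adjusted p = 0.0257), Itgb4 (−1.44 ± 0.26, adjusted p = 0.0204) and Sdc4 (−0.84 ± 0.18, adjusted p = 0.0400) were lower and Plod1 (2.50 ± 0.47, adjusted p = 0.0244) higher.

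Mouse tissue gave the family another make-up. The 17 fibrillar and collagen VI chains summed to 1417 to 1482 CPM of footprints in WT and to 1624 to 1982 CPM in Rptor fl/fl mice, where organoid footprints of the same chains summed to 0.159 to 5.31 CPM. Per kilobase of effective length, Col3a1 was at 86.4 ± 16.2 (SD, n = 3), Col6a1 at 62.5 ± 7.17, Col4a1 at 56.5 ± 4.04 and Col6a2 at 54.0 ± 5.13 in WT. The last 3 did not differ beyond their spread. The organoid levels per kilobase given above are of mRNA on whole transcripts, so they cannot be set against these footprint values. Smooth muscle markers summed to 1398 to 1542 CPM in WT and 1318 to 1498 CPM in Rptor fl/fl, and the 8 epithelial markers to 16797 to 17446 and 16240 to 18813 CPM. Footprints of stromal genes were thus present in both genotypes, in a pulldown aimed at tagged ribosomes of Lgr5-positive cells and their progeny.

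Rptor fl/fl mice had more footprints of matrix genes than WT mice. Of 41 members tested 20 were higher, where 7.47% of 11515 genes were. Col1a2 was called although its mice overlapped. DESeq2 called 14 higher. By edgeR and DESeq2 0 were lower, where 5.97% of genes were, with 1, Col4a6, at an unadjusted p under 0.05 (adjusted p = 0.0998). The median log2 fold change was 0.34 against −0.015 over all genes. All 62 members summed to 3102 to 3168 CPM in WT and to 3918 to 4418 CPM in Rptor fl/fl.

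Vcan had the largest rise, and Tnc and Fn1 rose with it. Vcan was at 7.55, 10.5 and 8.18 CPM in WT and at 31.8, 35.5 and 26.9 CPM in Rptor fl/fl mice (log2 fold change 1.81 ± 0.19, adjusted p = 1.0e-05). Its call was lost with effective length as an offset (adjusted p = 0.0906), and per kilobase of effective length its levels overlapped, at 11.2, 1.26 and 1.01 in WT against 3.96, 8.37 and 5.04. Tnc, which appears in matrix during repair, was at 62.9, 84.5 and 88.7 against 123, 138 and 125 CPM (0.64 ± 0.11, adjusted p = 0.000833). Fn1 was at 194, 202 and 193 CPM in WT and at 373, 406 and 378 CPM in Rptor fl/fl (0.97 ± 0.08, adjusted p = 3.23e-07). For Fn1 the direction depended on whether effective length was an offset. With it the log2 fold change turned to −1.69 (adjusted p = 4.4e-04). In WT mice 12.9%, 11.5% and 6.26% of its footprints were assigned to 5 sequences under 2000 bases and in Rptor fl/fl mice 0%. Its longer sequences held 134, 393.9 and 996.5 footprints in WT and 1136, 1338 and 3009 in Rptor fl/fl mice. In the same order these libraries held 772077, 2151821 and 5337092 footprints on genes in WT and 3085617, 3416458 and 8238388 in Rptor fl/fl.

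Laminin and linker footprints rose too. Lama3 was at 101, 104 and 110 CPM in WT and at 165, 207 and 211 CPM in Rptor fl/fl (log2 fold change 0.88 ± 0.10, adjusted p = 3.26e-05) and Lamb3 at 49.1, 46.4 and 52.9 against 89.9, 79.6 and 81.3 CPM (0.73 ± 0.10, adjusted p = 0.000217). Lamc1 (0.63 ± 0.11, adjusted p = 0.00151), Lama4 (0.51 ± 0.13, adjusted p = 0.0139), Lamb1 (0.48 ± 0.10, adjusted p = 0.00472) and Lama5 (0.33 ± 0.10, adjusted p = 0.0491) were higher too. Nid1 was at 37.7, 41.4 and 52.2 CPM against 66.2, 77.6 and 77.8 CPM (0.68 ± 0.12, adjusted p = 0.00172) and Hspg2 rose by less (0.34 ± 0.09, adjusted p = 0.0203). Agrn (−0.06 ± 0.08, adjusted p = 0.684) and Nid2 (0.17 ± 0.17, adjusted p = 0.597) were not called, with the mice overlapping.

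Among collagens the called rises reached the stromal chains and, apart from Col5a3, were at most 0.58 in log2. Col5a3 (log2 fold change 1.07 ± 0.30, adjusted p = 0.0278) rose from at most 33 footprints a mouse. Col1a1 was at 187, 161 and 155 CPM in WT and at 193, 263 and 278 CPM in Rptor fl/fl (0.58 ± 0.12, adjusted p = 0.00496) and Col3a1 at 338, 323 and 303 against 403, 451 and 485 CPM (0.49 ± 0.08, adjusted p = 0.00106). For Col1a1 Rptor fl/fl replicate 1 lay within 6 CPM of the highest WT mouse. Col12a1 (0.57 ± 0.11, adjusted p = 0.00275), Col5a2 (0.49 ± 0.13, adjusted p = 0.0210), Col4a1 (0.39 ± 0.09, adjusted p = 0.00588), Col1a2 (0.35 ± 0.11, adjusted p = 0.0408), Col4a2 (0.33 ± 0.09, adjusted p = 0.0316) and Col6a4 (0.27 ± 0.09, adjusted p = 0.0473) were also called. Col18a1 (0.22 ± 0.11, adjusted p = 0.240), Col6a1 (0.22 ± 0.09, adjusted p = 0.126), Col6a2 (0.32 ± 0.10, adjusted p = 0.0537), Col6a3 (0.20 ± 0.09, adjusted p = 0.199) and Col14a1 (0.19 ± 0.10, adjusted p = 0.256) were not. Many of these calls, in laminins as in collagens, depended on single mice or on transcript length. With effective length as an offset 5 members, Lama3, Lamb3, Nid1, Tnc and Lamb1, were higher and 1, Fn1, was lower, while Col5a3 (adjusted p = 0.130), Lamc1 (0.101) and Col1a1 (0.0681) were among those that lost their calls. The count was 12 without WT replicate 2 or Rptor fl/fl replicate 3, 13 without Rptor fl/fl replicate 2 and 14 without WT replicate 3, and 11 members, Vcan, Fn1, Lama3, Lamb3, Nid1, Tnc, Lamc1, Col12a1, Col3a1, Lamb1 and Col4a1, were called whichever mouse was left out.

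**Figure D5:**
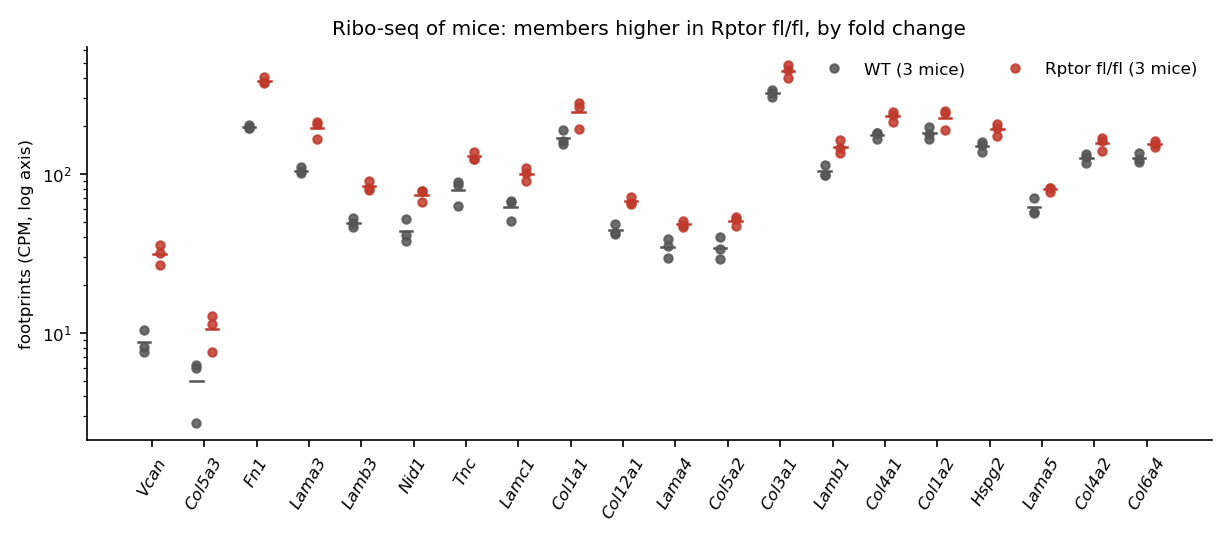
Footprints in CPM, on a log axis, of the 20 members called higher in Rptor fl/fl mice, ordered by fold change, in 3 WT and 3 Rptor fl/fl mice. Points are mice and bars are means. The genes were chosen by their adjusted p, for Col1a2 the mice overlap, and the gap is widest for Vcan.

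Summed markers of fibroblasts, endothelium and immune cells were higher in these Rptor fl/fl mice, while those of smooth muscle overlapped. Over all genes 7.47% were higher and 5.97% lower. The 8 fibroblast markers summed to 303 to 348 CPM in WT and to 415 to 425 CPM in Rptor fl/fl mice, and 2 of 7 tested were higher. The 8 endothelial markers summed to 91.8 to 109 and 132 to 146 CPM, with 3 of 8 higher, and the 8 immune markers to 346 to 377 and 413 to 448 CPM, with 2 of 7 higher. Of 8 smooth muscle markers 1 was higher and 1 lower, with sums of 1398 to 1542 CPM in WT and 1318 to 1498 CPM in Rptor fl/fl. The 6 stem cell markers summed to 551 to 577 CPM in WT and 347 to 531 CPM in Rptor fl/fl, with 2 of 5 lower. None of the stromal or immune markers had 0 footprints in the mice, and their part in the matrix values was not tested.

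Some matrix remodelling genes were higher in the same mice. By edgeR and by DESeq2 0 of the 3 lists' genes were lower, with 1 receptor (Sdc1) and 1 protease (Mmp10) lower at an unadjusted p under 0.05. Of 22 proteases and inhibitors 10 were higher, where 7.47% of all genes were, among them the protease inhibitor Timp1 (log2 fold change 2.88 ± 0.22, adjusted p = 2.43e-07) and the metalloproteases Mmp9 (1.23 ± 0.18, adjusted p = 0.000249) and Mmp3 (1.91 ± 0.31, adjusted p = 0.000666). Of 24 receptors 7 were higher, with the integrin chains Itgav (0.78 ± 0.11, adjusted p = 0.000247), Itga5 (0.87 ± 0.17, adjusted p = 0.00337) and Itga1 (0.55 ± 0.13, adjusted p = 0.00933) and with Cd44 (0.84 ± 0.15, adjusted p = 0.00126). Of 24 processing genes 6 were higher, with the transglutaminase Tgm2 (0.58 ± 0.08, adjusted p = 8.76e-05), Loxl2 (0.91 ± 0.16, adjusted p = 0.00148), the collagen chaperone Serpinh1 (0.55 ± 0.12, adjusted p = 0.00625) and the prolyl hydroxylase P4ha1 (0.91 ± 0.21, adjusted p = 0.00809).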

How the data were processed

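Per the labels and the study's methods, the authors trimmed Ribo-seq adapters (cutadapt 1.18), discarded reads of ribosomal RNA and ran Salmon 1.1.0 on the 23 libraries against protein-coding sequences of GENCODE vM21 (mm10). The deposited files give an estimated count per sequence. RNA-seq was counted on whole transcripts, organoid Ribo-seq on coding sequences with 46 added bases, and mouse Ribo-seq on the 5′ region and coding sequence with 31 added bases, so 5′ footprints enter the mouse values. The effective lengths, also deposited by the authors, served only for levels per kilobase and 1 alternative. TPM values and the authors' table of translation efficiency ratios and p-values were not used.

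For each gene the estimated counts of its sequences were added up and rounded, without the entries for 5′ regions. In R 4.3.3, edgeR 4.0.16 was used with filterByExpr, TMM and the quasi-likelihood test, with Benjamini-Hochberg adjustment over all genes tested at 0.05. Each of 6 comparisons was fitted on its own groups, with translation efficiency as an interaction term between assay and group. "Higher" and "lower" without a p mean an adjusted p under 0.05. Where a group had 3 or fewer reads in every library, the ratio of summed counts is given with an exact 95% interval, and against 0 reads a bound at 3 reads over the group. Intervals cover counting error only. Exact permutation tests were two-sided.

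Named genes are the members called in any comparison, a fixed set of laminin, collagen and linker genes, Rptor, and, for 3 pathway lists of 87 genes in all, up to 4 called genes per list and comparison, taken by adjusted p. Col26a1, Col4a6, Mmp10 and, in mice, Sdc1 were named after their values were seen. Members and lists were chosen with earlier results of these data known. The labels do not say for every group that replicates are separate cultures, so p-values may measure technical spread. Counts were also simulated with a dispersion common to all genes, and the changed genes were drawn from well-counted ones. Recovery at the low counts of many members was therefore not measured. In these simulated counts, changes of 4 times were recovered for 98.0% to 100.0% of genes in the RNA-seq and Ribo-seq comparisons and for 72.7% in translation efficiency. At 2 times the share was 90.0% for Rptor fl/fl against WT organoids, 24.0% for SCe against WT, 30.0% and 44.0% for Rptor fl/fl against SCe in RNA-seq and Ribo-seq, 9.38% for translation efficiency and 100.0% for mice.

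Alternatives were DESeq2 1.42.0, no count filter, no TMM factors, library sizes that leave out the 10 most counted genes, effective length as an offset, all RNA-seq groups in 1 fit, technical runs as separate replicates, the replicate number as a block, and leaving out each replicate. Stem-cell-depleted libraries were not analysed here. Counts cover all members and lists, but some single genes are not reported here.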

Additional observations from a re-analysis of the deposited data

Results flagged for a closer look

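The change in footprints and the change in mRNA between the Rptor fl/fl-labelled libraries and SCe differed in the interaction of assay and group (edgeR) by log2 values of −6.93 for Fn1, −3.08 for Lama5, −1.998 for Lamb2 and −1.19 for Agrn. The Rptor fl/fl lines differed between the assays, so line and assay cannot be told apart in these values. Only SCe organoids received CHIR and valproic acid, so deletion and treatment cannot be told apart either.

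Entries for 5′ untranslated regions in the organoid Ribo-seq, which no comparison uses, held footprints of a few members. Lamb3 had 48 in SCe and 142 in the Rptor fl/fl-labelled libraries, and Lamc1 had 41 in each group, above the floor of 3 counts. There were no control libraries for these entries. Of the 60 members with such an entry, 3 to 11 had any footprint in a library.

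Outliers within a group were not looked for, since each group had 2 or 3 samples.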

How the results depend on the processing

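Over the named genes, 1524 values kept direction and side of the threshold under an alternative, 251 lost a call, 45 gained one and 22 changed sign. Of the sign changes, that of Fn1 in mice, to −1.69 with effective length as an offset, was of a called gene, and the other 21 were of genes that had no call. Causes were not tested, except that fewer samples were fitted when a replicate was left out. Low footprint counts limit organoid Ribo-seq, where 12 of 62 members could be tested.

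With effective length as an offset, 4 members were lower in organoid Ribo-seq and 1 in translation efficiency, and in mice 5 were higher and 1 lower. In that setting Lama3 stood at 0.44 between Rptor fl/fl and SCe RNA-seq and Col4a3 at 1.06 in mice. DESeq2 called 9 members lower in translation efficiency. Between Rptor fl/fl and WT organoids 1 member was lower with DESeq2, with no count filter and with technical runs as separate replicates.

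Replicate numbers are shared between groups, but the labels do not say what they share. Deviations of same-numbered libraries correlated at 0.40 between Rptor fl/fl and WT organoids, 0.20 and 0.23 between SCe and WT, 0.27 and 0.31 between Rptor fl/fl and SCe RNA-seq, −0.05 to 0.03 in organoid Ribo-seq and −0.0047 to 0.04 in mice. With the replicate block, 17 members were higher and 1 lower in Rptor fl/fl against WT, 16 higher in SCe against WT, 9 lower in Rptor fl/fl against SCe and 10 lower in organoid Ribo-seq, 1 lower in translation efficiency (block within each assay) and 18 higher in mice. In that fit Col18a1 was at −0.20 and Lama3 at 0.18 between Rptor fl/fl and SCe RNA-seq.

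Leaving out each replicate gave, for Rptor fl/fl against WT organoids, 10 to 14 members higher and 0 to 1 lower, for SCe against WT 5 to 28 higher and 0 to 2 lower, for Rptor fl/fl against SCe 6 to 22 lower in RNA-seq, 6 to 12 in Ribo-seq and 1 to 8 in translation efficiency, and in mice 12 to 24 higher. Log2 values that changed sign in this way ranged, against WT organoids, from −0.091 to 0.98 for Col11a2, −0.47 to 0.10 for Col7a1, −0.27 to 0.51 for Col9a3 and −0.28 to 0.21 for Hspg2 in Rptor fl/fl and from −0.84 to 0.032 for Nid1 in SCe. Between Rptor fl/fl and SCe RNA-seq they ranged from −0.69 to 0.90 for Col18a1, −0.93 to 0.88 for Col4a5, −0.42 to 0.077 for Lama3 and −0.068 to 0.31 for Lamc1, in translation efficiency from −0.37 to 0.36 for Lamb3 and in mice from −0.51 to 0.043 for Col4a3. Where 1 line was left in a group, its spread was taken from the other group.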
